A study of Mus musculus with 4 samples.

Results

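The respiratory chain genes of the mouse were followed in single nuclei of the hippocampus, as the 97 of 25567 measured genes whose symbols name a subunit of complexes I to V. Symbols beginning with Nduf and then a, b, c, s or v and a digit were taken for complex I, Sdha to Sdhd for complex II, Uqcr for complex III, Cox4, Cox5, Cox6, Cox7 and Cox8 for complex IV and Atp5 for complex V. The mitochondrially encoded mt-Nd, mt-Cytb, mt-Co and mt-Atp genes were added, and symbols marked as pseudogenes were left out. This gave 84 nuclear members, of which 37 belong to complex I, 4 to complex II, 8 to complex III, 18 to complex IV and 17 to complex V. The 13 members on the mitochondrial chromosome comprise 7 of complex I, 1 of complex III, 3 of complex IV and 2 of complex V.

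The study set Fasn-R1812W mice, whose fatty acid synthase has an amino acid exchange, beside wild-type (WT) mice, all 8.5 months old. The EdU+ gate held nuclei that had taken up the thymidine analogue EdU, injected at 100 mg per kg on 3 days before isolation on day 4. The NeuN+ gate held nuclei stained with an antibody to the neuronal protein NeuN. RNA of each nucleus was amplified by Smart-seq2, a plate method that reads full-length transcripts and has no molecular identifiers. The groups were EdU+ Fasn-R1812W, EdU+ WT, NeuN+ Fasn-R1812W and NeuN+ WT, each with 1 library of 384 wells, and how many animals a library pools is not given in the sources used here. A difference between genotypes within a gate is therefore a difference between 2 libraries and has no replicate check.

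The respiratory chain passes electrons from NADH (complex I) and succinate (complex II) through complexes III and IV to oxygen, and ATP synthase (complex V) uses the proton gradient that results. Most subunits are encoded in the nucleus, translated in the cytoplasm and imported, whereas a few hydrophobic core subunits are transcribed and translated inside the mitochondrion. Since mitochondrial transcripts are not made in the nucleus, their reads in a preparation of nuclei are commonly taken as a measure of RNA from outside the nucleus. Neurons depend heavily on oxidative phosphorylation for the energy of synaptic signalling.

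The EdU+ WT library stood apart from the other 3. Per library 382 nuclei are stated for the study, beside 384 wells in each table. Only 167 of the EdU+ WT wells passed the filter of 1000 genes and 50000 reads, with a median of 1298 genes per kept nucleus, against 301 to 348 wells and medians of 3006 to 4417 genes elsewhere. Kept reads came to 95434447 in EdU+ Fasn-R1812W, 15088319 in EdU+ WT, 70306535 in NeuN+ Fasn-R1812W and 69661762 in NeuN+ WT. All wells together held 96597804, 36368990, 72468235 and 71221156 reads in that order. The summed level of 7 general neuronal markers was 1159 and 1441 CPM (reads per 1e+06 reads of nuclear-encoded genes) in EdU+ Fasn-R1812W and EdU+ WT, against 4656 and 4886 CPM in NeuN+ Fasn-R1812W and NeuN+ WT. The names of all 384 wells recur in every library, since they name plate positions, and 0 wells had identical counts.

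Mitochondrial and nuclear members went different ways across the 4 libraries. Mitochondrial members took 0.635% of the kept reads in EdU+ Fasn-R1812W, 0.369% in EdU+ WT, 0.166% in NeuN+ Fasn-R1812W and 0.247% in NeuN+ WT. The exact binomial intervals (Clopper-Pearson, 95%) were 0.634 to 0.637%, 0.366 to 0.373%, 0.165 to 0.167% and 0.246 to 0.248% in that order. These intervals cover counting error only, as amplified reads are not independent molecules. Both EdU+ libraries lay above both NeuN+ libraries, and the 2 genotypes were in opposite order in the 2 gates. Nuclear members held a far steadier share, at 1.01%, 1.24%, 1.30% and 1.23% of the kept reads.

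The ratio of mitochondrial to nuclear member reads was accordingly 0.631 in EdU+ Fasn-R1812W and 0.299 in EdU+ WT, a log2 ratio between genotypes of 1.08. In the NeuN+ gate it was 0.127 in Fasn-R1812W and 0.200 in WT, a log2 ratio of -0.66. Nuclei with more mitochondrial than nuclear member reads numbered 62 of 348 in EdU+ Fasn-R1812W and 11 of 167 in EdU+ WT, but 1 of 301 and 1 of 314 in NeuN+ Fasn-R1812W and NeuN+ WT. A list of 95 short cytoplasmic mRNAs, mainly of ribosomal proteins, took 2.55%, 2.03%, 1.72% and 1.89% of reads in the 4 libraries, the same order between genotypes as the mitochondrial share in each gate. Its part in the mitochondrial differences was not tested.

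**Figure D1:**
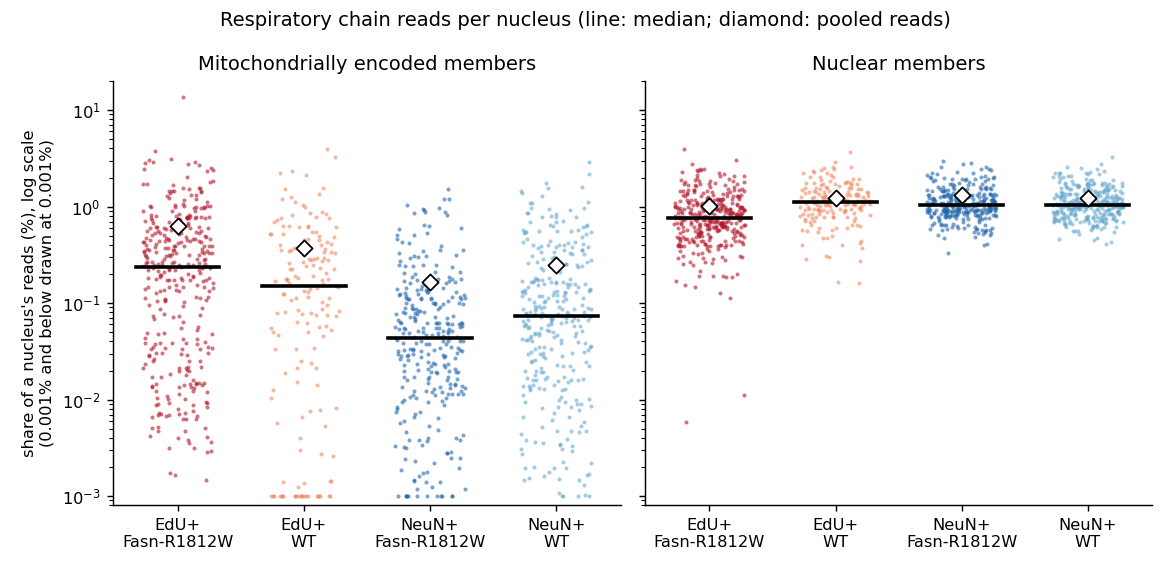
Share of each kept nucleus's reads that mapped to mitochondrially encoded members (left) and to nuclear members (right), in percent on a log scale, with 1 point per nucleus, a line at the median over nuclei and a diamond at the share of the pooled reads. Mitochondrial shares spread over several orders of magnitude within every library, with medians of 0.237% and 0.150% in EdU+ Fasn-R1812W and EdU+ WT and 0.0438% and 0.0728% in NeuN+ Fasn-R1812W and NeuN+ WT, while most nuclear shares lie near 1%.

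Within a library the mitochondrial share varied far more among nuclei than the nuclear share, as the plot of shares per nucleus shows. The middle 80% of nuclei ran from 0.00888 to 1.14% mitochondrial reads in EdU+ Fasn-R1812W, from 0 to 0.797% in EdU+ WT, from 0.00282 to 0.292% in NeuN+ Fasn-R1812W and from 0.00407 to 0.573% in NeuN+ WT. For nuclear members the same ranges were 0.386 to 1.54%, 0.570 to 1.89%, 0.645 to 1.75% and 0.693 to 1.73%. A few nuclei weighed heavily in the mitochondrial sums. The 5 nuclei with the most mitochondrial reads held 28.2%, 26.9%, 33.7% and 18.6% of them in the 4 libraries, and the single highest nucleus reached 13.6% mitochondrial reads in EdU+ Fasn-R1812W. Leaving out the 5 nuclei with the highest mitochondrial share in each library kept the order of all 4 libraries, at 0.537%, 0.283%, 0.121% and 0.207%.

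The tie between the mitochondrial and the nuclear share of a nucleus was weak in EdU+ and closer in NeuN+. The Spearman correlation of the 2 shares over nuclei was 0.18 in EdU+ Fasn-R1812W (348 nuclei), 0.16 in EdU+ WT (167 nuclei), 0.30 in NeuN+ Fasn-R1812W (301 nuclei) and 0.50 in NeuN+ WT (314 nuclei). Within classes described below it ranged widely. In granule-like nuclei of the NeuN+ gate it was 0.66 in Fasn-R1812W (47 nuclei) and 0.70 in WT (99 nuclei). In the same order of genotypes it was 0.014 and 0.41 in CA1-like nuclei and 0.24 and 0.34 in interneuron-like nuclei. Among EdU+ nuclei resembling oligodendrocyte precursors it was 0.18 and -0.043. The nuclei of a library share its amplification and depth, so these values describe single libraries. Mitochondrial members varied together from nucleus to nucleus, with median pairwise correlations of 0.25, 0.37, 0.37 and 0.48 among those read in at least 25% of nuclei. Pairs of nuclear members reached medians of only 0.055, 0.064, 0.061 and 0.059. The mitochondrial share also followed the share of short cytoplasmic mRNAs over nuclei, with correlations of 0.25, 0.33, 0.31 and 0.51. So did the share of nuclear members, with correlations of 0.41, 0.26, 0.64 and 0.67.

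Nuclear members were read in fewer EdU+ than NeuN+ nuclei, whereas the gates overlapped for mitochondrial members. After every nucleus had been thinned to 50000 reads, a median nuclear member had a read in 20.5% of nuclei in EdU+ Fasn-R1812W and 17.7% in EdU+ WT, against 49.5% and 48.9% in NeuN+ Fasn-R1812W and NeuN+ WT. Without thinning the values were 35.6%, 18.3%, 55.6% and 59.4%. A nucleus thus showed a median of 16 and 13 nuclear members in the 2 EdU+ libraries, and 40 and 41 in the 2 NeuN+ libraries. The median mitochondrial member had a read in 36.2%, 26.9%, 26.6% and 35.0% of thinned nuclei, and in 58.3%, 27.5%, 33.2% and 44.3% without thinning. The pooled share of nuclear members differed much less between gates than the share of nuclei in which they were read. Fewer genes of any kind were read per EdU+ nucleus before thinning, with medians of 3006 and 1298 against 4417 and 4395.5 in the NeuN+ libraries. Whether nuclear members differ in this from genes in general was not tested.

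The 13 mitochondrial genes fell into 9 that were well read and 4 that were nearly absent. Per kilobase of exon, mt-Nd1 (a membrane core subunit of complex I) was at 1277, 698, 369 and 515 CPM per kb in EdU+ Fasn-R1812W, EdU+ WT, NeuN+ Fasn-R1812W and NeuN+ WT. The level of mt-Cytb, the cytochrome b of complex III, was 1242, 839, 376 and 397 CPM per kb, and that of mt-Co1, the catalytic subunit of complex IV, was 948, 568, 204 and 324 CPM per kb. These 3 genes led in both EdU+ libraries, with mt-Nd4 and mt-Nd4l next. By contrast, mt-Co2 and mt-Atp8 had 0 reads in every library, mt-Atp6 had 9, 0, 117 and 0 reads, and mt-Co3 had 39, 4, 6 and 253 reads. The products of mt-Co2 and mt-Co3 are core subunits of complex IV that work beside the mt-Co1 product, and all are transcribed from the same mitochondrial genome.

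The nearly absent genes are neighbours on the mitochondrial genome and lie in a stretch with a close copy in the nuclear genome. In the GENCODE M21 annotation of GRCm38, mt-Co2 (chrM:7013-7696), mt-Atp6 (chrM:7927-8607) and mt-Co3 (chrM:8607-9390) each have a copy of 100% identity over at least 99.6% of their length in a block at chr1:24611535-24616197 on the minus strand. The fourth, mt-Atp8 (chrM:7766-7969), has no annotated copy in that block, where the 233 bases of chr1:24614652-24614884 between the copies of mt-Atp6 and mt-Co2 carry no annotated gene. Its closest annotated copy has 81.4% identity. The block also holds copies of well-read genes. Its copy of mt-Nd4l (chrM:9877-10173) matches 294 of the 297 bases of the gene with 0 mismatches, yet mt-Nd4l had 19900 reads in EdU+ Fasn-R1812W, and the copies of mt-Nd4 and mt-Co1 cover 63.6% and 31.3% of those genes. The gene with the fewest reads among the well-read 9 was mt-Nd3, whose copy differs at 1 of 345 aligned bases. Whether reads that fit both places were dropped in counting was not tested, because the files hold counts and not reads.

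Windows of 90 bases from a nearly absent, a sparsely read and a well-read gene show how closely the nuclear copies follow them, with differing bases in capitals. They are given from 5′ to 3′ on the strand of the mitochondrial gene. The window of mt-Co2 lies at chrM:7113-7202 on the plus strand and its copy Gm28661 at chr1:24615376-24615465 on the minus strand.
mt-Co2: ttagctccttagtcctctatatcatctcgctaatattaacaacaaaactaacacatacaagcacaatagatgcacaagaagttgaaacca
Gm28661: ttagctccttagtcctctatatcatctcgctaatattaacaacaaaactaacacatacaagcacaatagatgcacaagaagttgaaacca
The first 90 bases of mt-Nd3, at chrM:9459-9548 on the plus strand, hold the only difference from the copy Gm28438 at chr1:24613030-24613119 on the minus strand.
mt-Nd3: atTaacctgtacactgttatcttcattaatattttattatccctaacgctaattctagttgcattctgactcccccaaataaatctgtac
Gm28438: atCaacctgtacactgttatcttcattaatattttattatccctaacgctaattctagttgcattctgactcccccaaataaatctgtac
The window of mt-Nd6 lies at chrM:13881-13970 on the minus strand, and that of its closest annotated copy Gm11408, which is 93.6% identical over the whole gene, at chr4:80003725-80003814 on the minus strand.
mt-Nd6: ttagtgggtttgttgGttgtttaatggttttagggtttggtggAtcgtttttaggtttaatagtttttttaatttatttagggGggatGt
Gm11408: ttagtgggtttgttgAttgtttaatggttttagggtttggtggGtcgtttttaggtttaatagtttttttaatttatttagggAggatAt
The first pair has 0 differences, the second 1 and the third 4. Of the 55 genes annotated as copies of mitochondrial members, 1 has a row in the count tables.

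**Figure D2:**
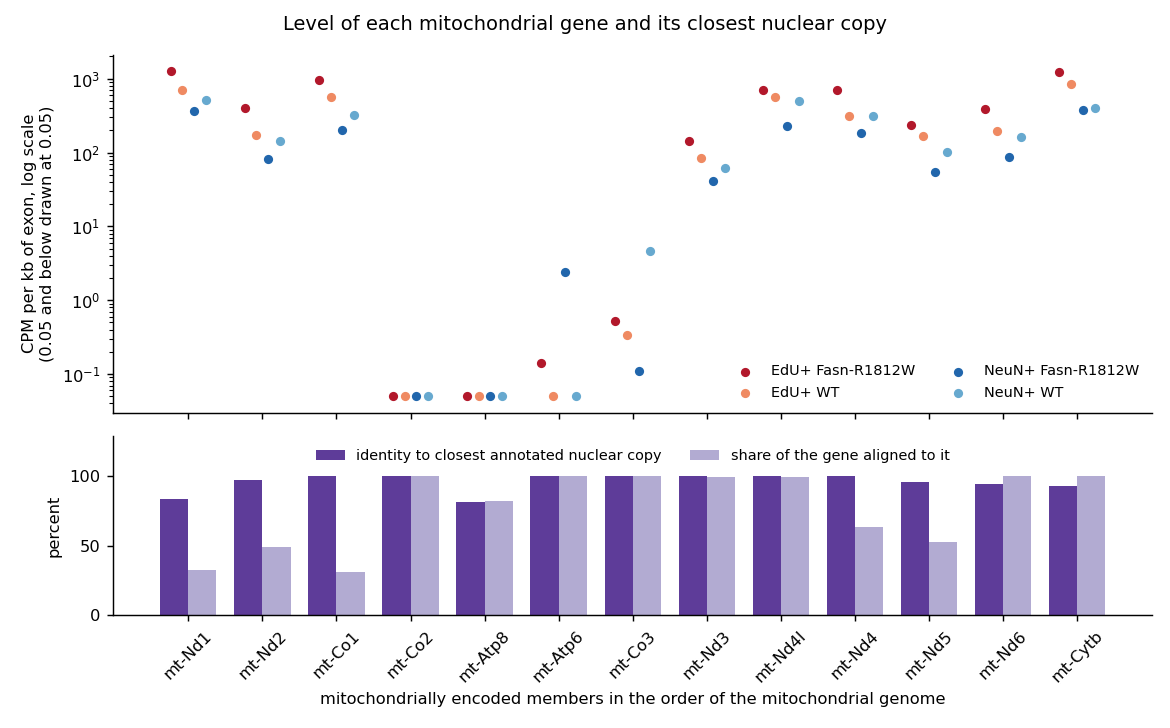
Level of each mitochondrially encoded member in the 4 libraries in CPM per kilobase of exon on a log scale (top), and identity to, and share of the gene aligned with, its closest annotated nuclear copy in percent (bottom), with genes in the order of the mitochondrial genome. The 4 neighbours mt-Co2, mt-Atp8, mt-Atp6 and mt-Co3 lie at or near 0 in every library, while mt-Nd4l, with an identical copy, is read at 228 to 707 CPM per kb.

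In the EdU+ gate every mitochondrial member past the filter of 10 CPM was higher in Fasn-R1812W than in WT. The level of mt-Nd2 was 411 CPM in Fasn-R1812W and 177 CPM in WT (log2 ratio 1.21), that of mt-Nd4 was 977 and 424 CPM (1.20), and that of mt-Nd6 was 205 and 101 CPM (1.02). These 3 subunits of complex I were at least 2-fold higher, as were 17.1% of all 11985 genes tested in this gate. The smallest difference was that of mt-Nd4l, at 210 CPM in Fasn-R1812W and 166 CPM in WT (log2 ratio 0.34). The 9 mitochondrial members had a median log2 ratio of 0.74, against -0.01 for all genes. All 9 were also higher in nuclei thinned to 50000 reads and as a mean over nuclei, where the medians were 0.50 and 0.52 and 0 members were 2-fold higher. With a filter of 2000 genes and 100000 reads, which leaves only 5 EdU+ WT nuclei, all 9 were lower in Fasn-R1812W, with a median of -0.61 against 1.65 for all genes.

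Nuclear members in the EdU+ gate were shifted the other way. Of the 77 that passed the filter, 57 were lower and 20 higher in Fasn-R1812W, with a median log2 ratio of -0.32. No nuclear member was 2-fold higher and 4 of the 77 were at least 2-fold lower, where 15% of all genes tested were. All 4 belong to complex I. Ndufa3, an accessory subunit, was at 120 CPM in Fasn-R1812W and 301 CPM in WT (log2 ratio -1.32), and Ndufv1, the core subunit that binds NADH and FMN, was at 46.3 and 110 CPM (-1.23). Ndufc1 had 40.5 and 88.3 CPM (-1.10) and Ndufs5 had 50.4 and 107 CPM (-1.07), both accessory subunits.

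The highest ratios among nuclear members in the EdU+ gate stayed under 2-fold. They were those of Ndufa5, an accessory subunit of complex I (119 CPM in Fasn-R1812W and 64.0 CPM in WT, log2 ratio 0.89), Atp5g3, a gene of the membrane ring subunit c of ATP synthase (181 and 112 CPM, 0.69), Ndufs3, a core subunit of complex I (94.4 and 65.1 CPM, 0.53) and Ndufa1, an accessory subunit of complex I (176 and 125 CPM, 0.48). The medians were alike across most complexes, at -0.34 for 36 members of complex I, -0.35 for 4 of complex II, -0.07 for 8 of complex III, -0.32 for 12 of complex IV and -0.32 for 17 of complex V. Cell type markers moved with this comparison. Summed microglial markers were at 3493 CPM in Fasn-R1812W and 1294 CPM in WT (8 of 9 higher, 0 at 0 reads in either library), and leukocyte markers at 3620 and 173 CPM (8 of 8 higher, 0 and 3 at 0 reads). Markers of oligodendrocyte precursors were at 6528 and 9063 CPM (0 of 10 higher). The part of these cell types in the members' differences was not tested over the whole gate, and in pooled reads a change in the number of cells of a type and a change in RNA per cell cannot be told apart.

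In the NeuN+ gate the 9 mitochondrial members were all lower in Fasn-R1812W. Their median log2 ratio was -0.78, against 0.03 for all genes. The level of mt-Nd4l was 67.8 CPM in Fasn-R1812W and 149 CPM in WT (log2 ratio -1.13), the only 2-fold difference among them, where 3.15% of 11243 genes were at least 2-fold lower. The levels of mt-Nd5 were 98.1 and 187 CPM (-0.93) and those of mt-Nd6 45.3 and 83.0 CPM (-0.86). The gene of cytochrome b differed least, with 431 CPM in Fasn-R1812W and 454 CPM in WT (-0.08). All 9 mitochondrial members thus had opposite directions in the EdU+ and NeuN+ gates, and this difference was not tested, with 1 library a group.

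Nuclear members hardly differed between genotypes in the NeuN+ gate. Of 77 past the filter, 46 were higher and 31 lower in Fasn-R1812W, with a median log2 ratio of 0.08 that turned to -0.02 in thinned nuclei and to -0.01 as a mean over nuclei. The median was 0.11 for complex I, 0.09 for complex II, -0.01 for complex III, -0.03 for complex IV and 0.09 for complex V. A single nuclear member was at least 2-fold higher, as were 3.58% of all genes, and none was 2-fold lower. That gene was Cox6a2, described below with its isoform. Ndufv1 came next, with 152 CPM in Fasn-R1812W and 95.7 CPM in WT (log2 ratio 0.66), then Atp5g3 with 304 and 195 CPM (0.64) and Ndufa12, an accessory subunit of complex I, with 115 and 73.9 CPM (0.63). Ndufv1 was therefore among the lowest in the EdU+ gate and among the highest in the NeuN+ gate.

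The lowest nuclear ratios in the NeuN+ gate were those of weakly read or moderately read genes. Atp5s, which encodes the coupling factor S of ATP synthase, had 9.09 CPM in Fasn-R1812W and 17.0 CPM in WT (log2 ratio -0.83), and Atp5g2, another gene of subunit c, had 19.4 and 34.9 CPM (-0.81). Ndufa9, an accessory subunit of complex I, had 73.9 and 105 CPM (-0.51), and Sdhd, a membrane anchor of complex II, had 41.8 and 59.6 CPM (-0.50). Of the 7 catalytic core subunits of complex I encoded in the nucleus, 6 were higher in the NeuN+ gate (median log2 ratio 0.36) and 6 were lower in the EdU+ gate (median -0.19). In the NeuN+ gate summed astrocyte markers were at 678 CPM in Fasn-R1812W and 1719 CPM in WT (0 of 12 higher, 0 at 0 reads in either library) and granule neuron markers at 1134 and 1871 CPM (2 of 11 higher, 0 at 0 reads). Their part in the mitochondrial differences was not tested over the whole gate.

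**Figure D3:**
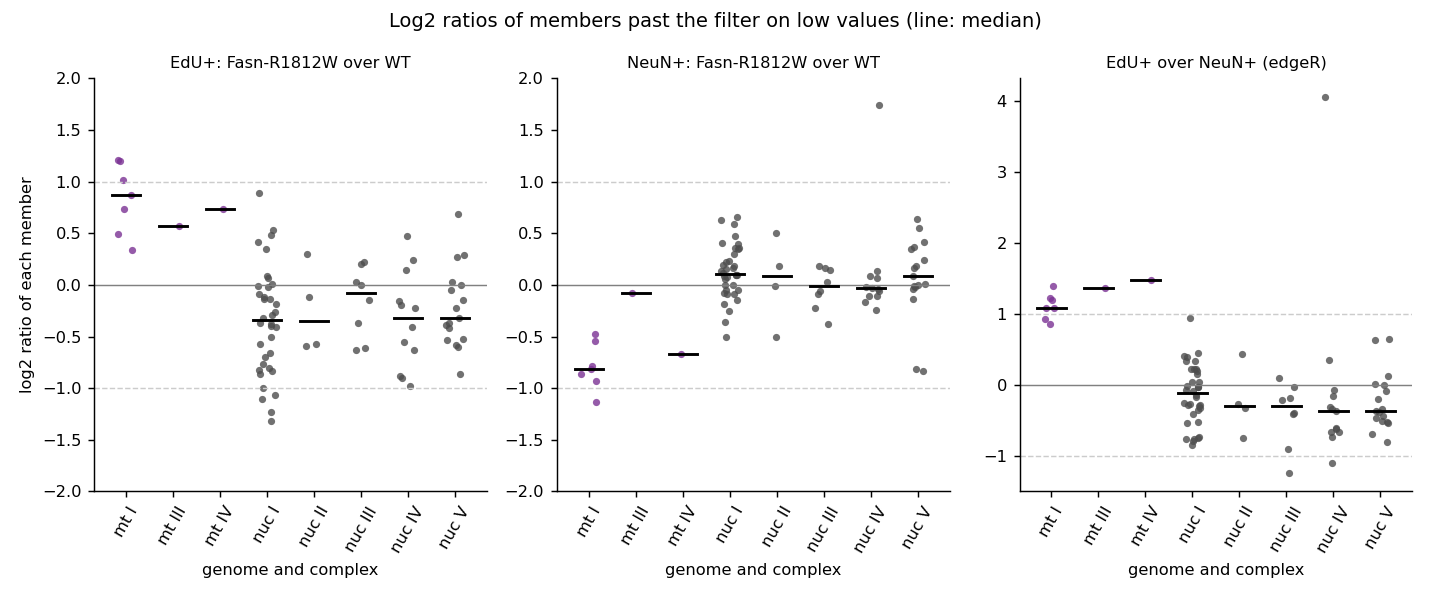
Log2 ratio of each member past the filter on low values, by genome (mt, mitochondrial; nuc, nuclear) and complex, for Fasn-R1812W over WT in the EdU+ gate (left) and the NeuN+ gate (middle) and for EdU+ over NeuN+ from the edgeR fit (right); lines mark medians and dashed lines a 2-fold difference. Mitochondrial members lie between 0.34 and 1.21 in the EdU+ pair and between -1.13 and -0.08 in the NeuN+ pair. Nuclear medians of the complexes stay between -0.35 and 0.11 in these genotype pairs.

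The gates could be tested across genotypes, with 2 libraries in each gate and a genotype term in edgeR's quasi-likelihood fit of 17421 genes. This fit had 1 residual degree of freedom and borrowed its spread across genes. At a Benjamini-Hochberg adjusted p under 0.05 it called 0 of 82 nuclear and 0 of 10 mitochondrial members, while 6.64% of all genes were called, 3.79% as higher and 2.85% as lower in EdU+. At an unadjusted p under 0.05, 4 mitochondrial members were higher and 4 nuclear members lower in EdU+, where 20.7% of all genes had such a p. DESeq2 called 4 mitochondrial members higher, 2 nuclear members higher and 1 nuclear member lower, and 20.5% of all genes. The 2 nuclear members called higher were Cox8b and Cox6b2, rarely read isoforms whose EdU+ reads came from few nuclei, as described below. Without a library the genotype term had to be dropped. Leaving out EdU+ WT, edgeR then called 7 mitochondrial members, all higher in EdU+, 5 nuclear members and 20.2% of all genes, and leaving out EdU+ Fasn-R1812W, 2 mitochondrial members, 5 nuclear members and 24.1% of all genes. The counts of nuclear members lay below these shares of their number.

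Mitochondrial members had a median log2 ratio of EdU+ over NeuN+ of 1.14, and 9 of 10 were above 0, against a median of -0.16 for all genes. The lowest adjusted p belonged to mt-Cytb (1421 and 960 CPM in the EdU+ libraries, 431 and 454 CPM in the NeuN+ libraries, log2 ratio 1.37, edgeR adjusted p = 0.0643, both EdU+ libraries higher). For mt-Co1 the levels were 1465 and 877 CPM in EdU+ and 316 and 501 CPM in NeuN+ (log2 ratio 1.48, edgeR adjusted p = 0.104). Neither gene passed the threshold, although in both of them the gates did not overlap. The 82 nuclear members had a median of -0.28, with 59 below 0 and 23 above.

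Among nuclear members, the lowest EdU+ over NeuN+ ratio of a well-read gene was that of Uqcrc2, a core protein of complex III. Its level was 56.2 and 55.2 CPM in EdU+ Fasn-R1812W and EdU+ WT and 135 and 122 CPM in NeuN+ Fasn-R1812W and NeuN+ WT (log2 ratio -1.24, standard error 0.38, edgeR adjusted p = 0.120). The 2 gates did not overlap for this gene, and DESeq2 called it lower in EdU+. Ndufs8, an iron-sulfur core subunit of complex I, had 140 and 250 CPM in the EdU+ libraries and 112 and 80.4 CPM in the NeuN+ libraries (log2 ratio 0.94, edgeR adjusted p = 0.258). Atp5g2 had 41.0 and 42.3 CPM in EdU+ and 19.4 and 34.9 CPM in NeuN+ (0.64, edgeR adjusted p = 0.675). The most extreme ratios came from rarely read isoforms of complex IV.

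Genotype was also fitted over both gates together. The edgeR joint fit called 0 of 82 nuclear and 0 of 10 mitochondrial members at an adjusted p under 0.05, with 0.00574% of all genes called, or 1 gene. It gave 0 members at an unadjusted p under 0.05, against 1.58% of all genes, and DESeq2 called 0, against 0.367%. The mitochondrial median of this fit, which averages over the gates, was 0.11, and the nuclear median was -0.08.

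Complex IV is known for subunits with tissue-specific isoforms, and in these libraries the widely expressed one led each fixed pair. Cox4i1 was at 300, 398, 417 and 436 CPM in EdU+ Fasn-R1812W, EdU+ WT, NeuN+ Fasn-R1812W and NeuN+ WT, while Cox4i2, known from lung and from the response to low oxygen, had 0 reads in all 4, which allows up to 0.0316, 0.2, 0.0427 and 0.0432 CPM (3 reads per library). Cox8a, at 330, 278, 368 and 396 CPM, was the nuclear member with the highest level per exon length, at a mean of 554 CPM per kb. Its isoform Cox8c had 0 reads in all 4 libraries, and Cox8b, known from muscle and brown fat, reached 12.2, 4.59, 0.556 and 0.115 CPM. Few EdU+ nuclei held the Cox8b reads, with 670 of them in 1 of 32 nuclei of an unnamed cluster. In EdU+ WT 69 reads lay in 1 of 52 nuclei of the class resembling oligodendrocyte precursors, described below. Cox7a2 was at 173, 203, 218 and 236 CPM, whereas the muscle isoform Cox7a1 was at 0.643, 0, 1.92 and 5.12 CPM. Cox7b had 146, 131, 224 and 204 CPM and Cox7b2 had 0.0949, 0, 2.28 and 3.81 CPM.

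Cox6a2, the isoform of subunit VIa known from heart and skeletal muscle, also stood below its widely expressed partner in every library. It was read at 5.34, 5.85, 22.6 and 6.06 CPM in EdU+ Fasn-R1812W, EdU+ WT, NeuN+ Fasn-R1812W and NeuN+ WT, against 255, 472, 262 and 267 CPM of the widely expressed Cox6a1. Its log2 ratio between genotypes was 1.74 in the NeuN+ gate, the largest of any nuclear member there. Its reads came from few nuclei. In nuclei classed as interneuron-like from their markers, it had 137 CPM in Fasn-R1812W (13 of 40 nuclei, exact Poisson interval 130 to 145) and 53.8 CPM in WT (7 of 33 nuclei, 48.5 to 59.5). These intervals cover counting error only and not the spread between the few nuclei that held the reads. In granule-like nuclei it had 21 reads in 1 of 47 Fasn-R1812W nuclei and 0 reads in 99 WT nuclei, and in CA1-like nuclei 2 reads in each genotype.

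The interneuron-like nuclei formed a cluster led by Sst, Crhbp, Cort and Npy, in which 12 of 38 nuclei held Cox6a2 reads (124.8 CPM), and a cluster led by Ndnf, Hapln1 and Frem1, in which 8 of 35 did (81.9 CPM). In a cluster whose leading genes were astrocytic, 7 of 71 NeuN+ nuclei had a Cox6a2 read, at 9.77 CPM. The summed level of interneuron markers was 2512 CPM in NeuN+ Fasn-R1812W and 1933 CPM in NeuN+ WT, with 10 of 14 higher, and its part in the genotype difference of Cox6a2 was not tested. With the gene filter that also asks for a read in 10% of nuclei of either library, Cox6a2 dropped out of the NeuN+ comparison. In the EdU+ gate Cox6b2, a testis isoform, was at 8.75 and 17.2 CPM in Fasn-R1812W and WT. Of its reads there, 752 lay in 7 of 61 nuclei of 1 unnamed cluster. In NeuN+ Fasn-R1812W and NeuN+ WT it was at 0.570 and 0.907 CPM. For EdU+ over NeuN+ edgeR did not call it (edgeR adjusted p = 0.244), whereas DESeq2 called it higher in EdU+.

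The remaining sets held genes of complexes I, III, IV and V. Ndufa4, now counted as a subunit of complex IV, had 303, 322, 397 and 382 CPM in EdU+ Fasn-R1812W, EdU+ WT, NeuN+ Fasn-R1812W and NeuN+ WT, whereas Ndufa4l2, known from the response to low oxygen, stayed under 0.32 CPM in each. Cox6b1 was at 257, 184, 228 and 218 CPM, and Cox7a2l, an assembly factor of supercomplexes, at 38.3, 76.2, 79.5 and 80.5 CPM. Uqcrh, the hinge protein of complex III, was at 190, 165, 209 and 184 CPM. The genes Atp5g1, Atp5g2 and Atp5g3 encode the same mature subunit c with different import sequences. They had 117, 41.0 and 181 CPM in EdU+ Fasn-R1812W, 175, 42.3 and 112 CPM in EdU+ WT, 247, 19.4 and 304 CPM in NeuN+ Fasn-R1812W and 208, 34.9 and 195 CPM in NeuN+ WT, so Atp5g2 was the lowest of them in all 4 libraries. Their near-identical coding parts could share reads, as could 7 nuclear members with an annotated pseudogene of at least 95% identity over at least 50% of the transcript, among them Atp5l, Uqcrb and Atp5h.

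Small accessory subunits led the levels per exon length in most complexes. In complex I the leaders were Ndufa1 and Ndufa2, at means over the 4 libraries of 363 and 272 CPM per kb. In complex III they were Uqcr11 and Uqcr10, at 387 and 302 CPM per kb, and in complex IV Cox8a and Cox6a1, at 554 and 447 CPM per kb. ATP synthase was led by Atp5k and Atp5h, subunits of its membrane part, at 163 and 135 CPM per kb. Complex II was lowest, with Sdhb and Sdha, its iron-sulfur and flavoprotein subunits, at 63.2 and 57.1 CPM per kb. The mean of mt-Nd1 was 715 CPM per kb on the same scale, but the order depended on the gate. Cox8a was at 533 and 449 CPM per kb in EdU+ Fasn-R1812W and EdU+ WT, below mt-Nd1, mt-Cytb and mt-Co1, and at 595 and 640 CPM per kb in NeuN+ Fasn-R1812W and NeuN+ WT, above all 3.

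Mitochondrial levels also differed between cell classes and were summed in 4 of the classes named from their markers. Other named classes with nuclei of both genotypes, such as astrocyte-like and CA3-like nuclei, were not summed. Granule-like nuclei of the NeuN+ gate, from the dentate gyrus, held summed mitochondrial members at 4016 CPM in Fasn-R1812W (47 nuclei) and 3936 CPM in WT (99 nuclei). CA1-like pyramidal nuclei held 822 CPM in Fasn-R1812W (65 nuclei) and 739 CPM in WT (46 nuclei), and interneuron-like nuclei held 1530 CPM (40 nuclei) and 1986 CPM (33 nuclei). Granule-like nuclei thus had more mitochondrial reads than CA1-like and interneuron-like nuclei in each genotype. They were 47 of 301 kept nuclei in NeuN+ Fasn-R1812W and 99 of 314 in NeuN+ WT. Nuclear members varied less. They summed to 16000 CPM in Fasn-R1812W and 14101 CPM in WT in the granule-like class, to 11553 and 10799 CPM in the CA1-like class, and to 15797 and 13073 CPM among interneuron-like nuclei.

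Within classes of the NeuN+ gate the mitochondrial members did not go one way. In granule-like nuclei 1 of 9 was higher in Fasn-R1812W (median log2 ratio -0.15), a direction that turned at clustering resolution 0.6 (5 of 9, median 0.25) and with classes by marker score (5 of 9, median 0.053). In CA1-like nuclei 7 of 8 were higher (median 0.41), but 0 of 9 were with classes by marker score (median -0.99). In interneuron-like nuclei 2 of 9 were higher (median -0.50). Single nuclei carried much of these sums, namely 23.6%, 39.8% and 31.3% of the mitochondrial reads of the 3 Fasn-R1812W classes and 6.32%, 16.9% and 35.7% of the WT classes. The median granule-like nucleus held 0.138% mitochondrial reads in Fasn-R1812W and 0.247% in WT. The median CA1-like nucleus held 0.0191% and 0.0483%, and the median interneuron-like nucleus 0.0697% and 0.0603%, in the same order. In each of the 3 classes this order of genotypes was the reverse of that of the summed level. Granule-like nuclei came from 2 clusters, of which the first held 29 of the 47 Fasn-R1812W nuclei and 48 of the 99 WT nuclei, and the second 18 and 51.

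In the EdU+ gate the class resembling oligodendrocyte precursors, the cells that divide to form oligodendrocytes, held 51 Fasn-R1812W and 52 WT nuclei. Its mitochondrial members summed to 3956 CPM in Fasn-R1812W and 2020 CPM in WT, and all 9 past the filter were higher (median log2 ratio 1.04). The median nucleus of the class differed less, at 0.174% mitochondrial reads in Fasn-R1812W and 0.132% in WT. A single nucleus carried 15.8% and 11.8% of these reads, and 34.2% and 21.2% with classes by marker score. Nuclear members of the class summed to 9674 CPM in Fasn-R1812W and 11722 CPM in WT, with 26 of 76 higher (median -0.19). The mitochondrial sum was higher in Fasn-R1812W under every clustering that gave the class, whereas the nuclear sum turned with classes by marker score, to 10747 CPM in Fasn-R1812W and 10461 CPM in WT (log2 ratio 0.0389). The share of short cytoplasmic mRNAs in it was 1.44% in Fasn-R1812W and 1.63% in WT, the reverse of the order of the mitochondrial level. Its name rests on 6 of 10 markers at least 2-fold up, none of them among its 10 leading genes. Unnamed EdU+ clusters of 61, 32, 81 and 23 nuclei also scored highest for these markers, with fewer than 3 of them 2-fold up. At resolution 0.6 the class held 152 Fasn-R1812W and 89 WT nuclei. No cluster kept the name with 30 principal components, where a cluster of 60 nuclei that scored highest for it, with 5 markers 2-fold up, was called a leukocyte-gene cluster.

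**Figure D4:**
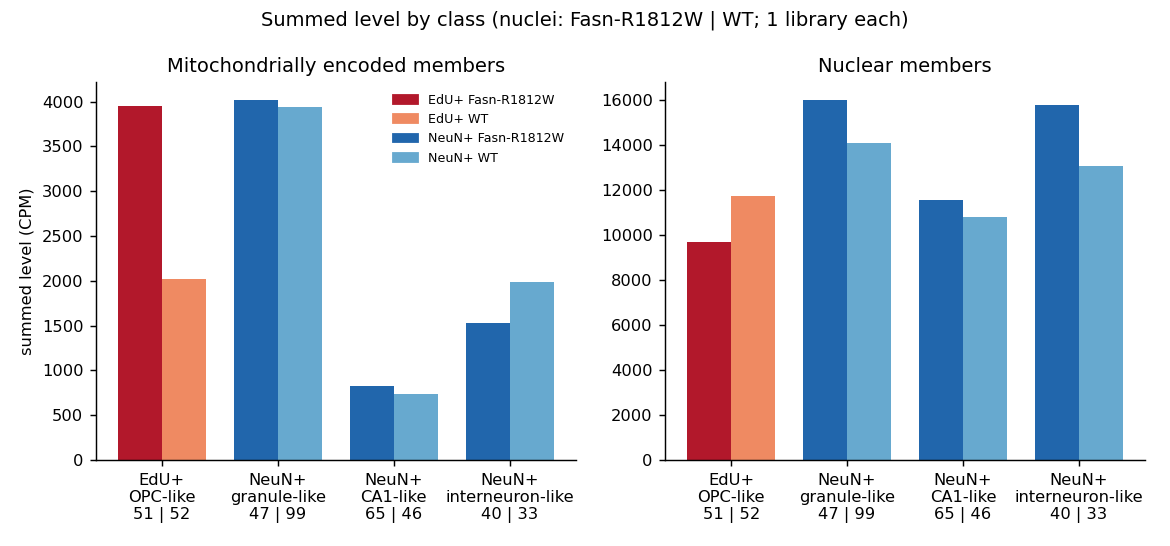
Summed level of mitochondrially encoded members (left) and of nuclear members (right) in CPM for 4 of the named classes. Each pair has Fasn-R1812W to the left of WT, with the number of nuclei of each genotype under it. Bars are sums of 1 library and have no error bars. Mitochondrial levels are 4016 CPM in Fasn-R1812W and 3936 CPM in WT granule-like nuclei and differ between genotypes mainly in the class resembling oligodendrocyte precursors.

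Genes that serve the respiratory chain without being part of it were read for comparison. Assembly factors followed the nuclear members, with median log2 ratios of -0.21 in EdU+ and 0.09 in NeuN+, and so did mitochondrial ribosomal proteins, with -0.25 and 0.04. Enzymes of the citric acid cycle, which feeds the chain with NADH and succinate, had medians of 0.11 and 0.18. Regulators of nuclear respiratory genes, such as Nrf1 and Gabpa, had medians of 0.44 and 0.13, and genes that copy and transcribe mitochondrial DNA had 0.01 and 0.08. Electron carriers and ATP export genes had -0.11 and 0.13. None of these lists had a median above 0 in EdU+ and below 0 in NeuN+, as the mitochondrial members did. The short cytoplasmic mRNAs did, with medians of 0.41 and -0.15, and 58 of the 92 tested in both gates were higher in EdU+ Fasn-R1812W and lower in NeuN+ Fasn-R1812W than in the WT library of the gate.

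For EdU+ over NeuN+ edgeR called 1 of 22 genes of mitochondrial DNA expression and copying, and 0 of 45 assembly factors, 0 of 13 citric acid cycle enzymes, 0 of 14 regulators, 0 of 78 mitochondrial ribosomal proteins and 0 of 16 carriers. Of all genes tested it called 6.64%. At an unadjusted p under 0.05 these last 5 lists had 1, 3, 2, 4 and 1 genes, against 20.7% of all genes. DESeq2 called 0, 1, 2, 4 and 1 of them, against 20.5% of all genes. The gene called was Polg, the catalytic subunit of the mitochondrial DNA polymerase, with 356 and 282 CPM in EdU+ Fasn-R1812W and EdU+ WT and 125 and 78.6 CPM in NeuN+ Fasn-R1812W and NeuN+ WT (log2 ratio 1.65, edgeR adjusted p = 0.0299, both EdU+ libraries higher). Of 92 short cytoplasmic mRNAs tested, 3 were called higher in EdU+ as well, where 3.79% of all genes were. They were those of Rpl13, Rps9 and Ftl1, the light chain of ferritin.

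Promoters of the nuclear members were searched for 3 motifs of factors known to drive respiratory genes, in RefSeq windows of 300 bases (250 before to 50 after the start, build GRCm38.p6) found for 66 of the 84. The letters GCATGCG, from the motif of NRF1, occurred in 11 of 66 (16.7%), against 4.01% of 27025 genes. The letters CCGGAAG, bound by ETS factors such as GABPA, occurred in 16 of 66 (24.2%), against 9.93% of genes, and GATGGCG, from the motif of YY1, in 10 (15.2%), against 4.04%. Both strands were searched, a gene counted once if any of its windows held the letters (5 members had more than 1 window), and in 0 member promoters did matches of different motifs overlap. A match describes letters and not binding. The promoters of Cox6a1 (chr5:115348909-115349208, minus strand) and of Atp5j (chr16:84834927-84835226, minus strand), a gene of the stalk of ATP synthase, are shown because they are the 2 of the 66 that hold all 3 motifs, with matches on either strand in capitals.
Cox6a1: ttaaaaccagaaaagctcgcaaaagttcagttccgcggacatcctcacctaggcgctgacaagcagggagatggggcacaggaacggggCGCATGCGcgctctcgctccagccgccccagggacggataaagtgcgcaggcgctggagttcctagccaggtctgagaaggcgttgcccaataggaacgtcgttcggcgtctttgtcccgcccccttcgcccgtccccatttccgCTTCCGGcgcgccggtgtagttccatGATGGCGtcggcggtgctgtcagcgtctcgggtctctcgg
Atp5j: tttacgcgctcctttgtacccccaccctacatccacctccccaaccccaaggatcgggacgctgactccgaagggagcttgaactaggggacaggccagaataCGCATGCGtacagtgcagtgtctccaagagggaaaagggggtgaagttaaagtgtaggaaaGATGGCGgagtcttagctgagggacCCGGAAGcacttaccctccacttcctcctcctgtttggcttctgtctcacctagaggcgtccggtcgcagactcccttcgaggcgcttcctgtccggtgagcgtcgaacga
In these libraries Cox6a1 was at 255 CPM in EdU+ Fasn-R1812W and 472 CPM in EdU+ WT (log2 ratio -0.89), and at 262 and 267 CPM in NeuN+ Fasn-R1812W and NeuN+ WT (-0.03). Atp5j was at 265 and 220 CPM in the EdU+ pair (0.27) and at 239 and 262 CPM in the NeuN+ pair (-0.13).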

How the data were processed

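The deposited values were raw read counts per gene and well, 1 table of 25567 genes and 384 wells per library. Per the submitters' processing notes Trimmomatic 0.36, STAR 2.5.3a and the build GRCm38.p5 were used. The counting program, its strand setting and its treatment of reads with several matches were not given in the sources used here, so reads where genes on opposite strands overlap, as at the ends of mt-Nd5 and mt-Nd6, could not be told apart. Symbols and positions came from GENCODE release M21 of the same build.

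Counts of nuclei with at least 1000 genes and 50000 reads were summed per library. CPM used the total of nuclear-encoded genes, log2 ratios a prior of 1 CPM, and genes entered a genotype comparison at a mean of at least 10 CPM over the pair. Log2 ratios of low genes are pulled toward 0 by the prior. Gates and the joint genotype term were tested with edgeR 4.0.16 (TMM, quasi-likelihood) in R 4.3.3, with DESeq2 1.42.0 as the alternative; the step was tested on simulated data. With both terms 1 residual degree of freedom is left, so the p-values rest on how far the genotype difference varies between the gates and on the spread borrowed across genes. Nuclei were clustered with scanpy 1.11.5 (2000 variable genes, 20 principal components, 15 neighbours, Leiden resolution 1) without members, mitochondrial or Y-linked genes. Each cluster was named after the marker list whose mean log2 fold was highest, provided that at least 3 markers were 2-fold up. That list also needed at least as many of the 10 leading genes as any other list. A cluster with reads far below its library's median and no own marker among its leading genes stayed unnamed. EdU+ clusters with Ptprc at least 2-fold up and a best list other than microglia were called leukocyte-gene clusters instead. Doublets were not called, and as an alternative the top 5% of nuclei by gene number were dropped. Member transcripts were aligned to annotated pseudogenes with BLAST+ 2.17.0, and sequences came from the transcripts of GRCm38 and from RefSeq promoters of GRCm38.p6. The alternatives were other nucleus filters, means over nuclei, thinning, other scaling, other gene filters and other clusterings. Named are all mitochondrial members, the 2 nuclear members per complex with the highest level per exon length, the 4 with the largest ratio each way in each comparison, fixed isoform sets and the leading genes of other lists. Members and lists were chosen with earlier results of these data known. Nuclear-retained RNAs, mitochondrial rRNAs and tRNAs, and embryonic nuclei were not analysed here. A cluster that rests on rebuilt names may differ from the cell types of the study.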

Additional observations from a re-analysis of the deposited data

Results flagged for a closer look

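Genotype differences of the mitochondrial members had opposite directions in the 2 gates. Their median log2 ratio of Fasn-R1812W over WT was 0.74 in EdU+ and -0.78 in NeuN+, and all 9 members past the filter in both gates followed it. The log2 ratio of mitochondrial over nuclear member reads between genotypes was 1.08 in EdU+ and -0.66 in NeuN+. Nuclear members went the other way, with medians of -0.32 in EdU+ and 0.08 in NeuN+. With 1 library per group the difference between gates was not tested for any of them, and the NeuN+ nuclear median changed sign as a mean over nuclei.

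Wells left out by the filter on genes and reads were not used in the comparisons and still held mitochondrial reads. These made up 0.461% of the reads in 36 such wells of EdU+ Fasn-R1812W, 0.307% in 217 wells of EdU+ WT, 0.1% in 83 wells of NeuN+ Fasn-R1812W and 0.106% in 70 wells of NeuN+ WT. The left-out share was below that of the kept nuclei in each library. In EdU+ WT the left-out wells held most of the reads, as 15088319 of its 36368990 reads lay in kept nuclei. In EdU+ Fasn-R1812W 95434447 of 96597804 reads were kept.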

How the results depend on the processing

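Values of 4 libraries are in the order EdU+ Fasn-R1812W, EdU+ WT, NeuN+ Fasn-R1812W, NeuN+ WT. The mitochondrial share of reads was 0.633, 0.324, 0.164 and 0.244% with a filter of 300 genes and 20000 reads, then 0.633, 0.333, 0.164 and 0.244% with no filter on nuclei, then 0.648, 1.13, 0.176 and 0.251% with a filter of 2000 genes and 100000 reads, then 0.482, 0.333, 0.116 and 0.205% in nuclei thinned to 50000 reads, then 0.57, 0.324, 0.162 and 0.245% once the top 5% of nuclei by gene number were dropped, then 0.537, 0.283, 0.121 and 0.207% without the 5 nuclei highest in mitochondrial share, then 0.481, 0.333, 0.116 and 0.205% as a mean over nuclei. The ratio of mitochondrial to nuclear member reads was 0.632, 0.252, 0.127 and 0.199 with a filter of 300 genes and 20000 reads, then 0.632, 0.255, 0.127 and 0.199 with no filter on nuclei, then 0.638, 0.606, 0.131 and 0.202 with a filter of 2000 genes and 100000 reads, then 0.545, 0.279, 0.102 and 0.179 in nuclei thinned to 50000 reads, then 0.602, 0.272, 0.124 and 0.199 once the top 5% of nuclei by gene number were dropped, then 0.541, 0.23, 0.0961 and 0.171 without the 5 nuclei highest in mitochondrial share, then 0.543, 0.279, 0.102 and 0.179 as a mean over nuclei. Both measures moved by more than counting error in these settings, except the ratio of both Fasn-R1812W libraries with the relaxed filter and with no filter. The order of genotypes in each gate held in all of them, except that the share of EdU+ WT exceeded that of EdU+ Fasn-R1812W with the strictest filter, which left 5 EdU+ WT nuclei. 

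The edgeR fit of EdU+ against NeuN+ called 0 members and 6.64% of all genes, and DESeq2 called 3 nuclear and 4 mitochondrial members and 20.5% of all genes. For mitochondrial members the count was 1 with RLE size factors, with library totals only and with the relaxed filter on nuclei, 2 with no such filter and 4 in thinned nuclei, where 8.58, 8.62, 10.9, 10.8 and 13.4% of all genes were called in that order. Leaving out 1 library at a time gave 0 to 5 nuclear and 0 to 7 mitochondrial calls, with 5.54 to 24.1% of all genes called. The ratio of mt-Co3, uncalled in the fit of all 4, then ran from -3.47 without NeuN+ Fasn-R1812W to 1.93 without NeuN+ WT (edgeR adjusted p = 0.971). The joint genotype fit called 0 members in every setting run. 

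In EdU+ the count of members at least 2-fold higher was 7 with the relaxed filter and 7 with no filter on nuclei, 15 with the strict one, 0 in thinned nuclei and as a mean over nuclei and 5 once the top 5% of nuclei by gene number were dropped. That of members 2-fold lower was 12, 10 and 35 with those 3 filters, 8 in thinned nuclei and as a mean and 7 without the 5 nuclei highest in mitochondrial share. The EdU+ nuclear median was -0.64 with the strict filter, -0.44 in thinned nuclei and -0.42 as a mean. With the strict filter the EdU+ mitochondrial median reversed to -0.61, and mt-Nd2, mt-Nd4 and mt-Nd6 to -0.0886, -0.60 and -0.38, with 5 EdU+ WT nuclei left. In NeuN+ the nuclear median reversed to -0.0210 in thinned nuclei and to -0.0068 as a mean over nuclei; the cause was not tested. Members 2-fold lower in NeuN+ numbered 4 in thinned nuclei, as a mean and without the 5 highest nuclei, and 3 with a gene filter of 1 CPM or none; members 2-fold higher numbered 2 with no gene filter and 0 when a read in 10% of nuclei was also asked. Other scaling, the prior of 0.1 CPM and leaving out members with a pseudogene copy moved neither a median nor a count past these limits. The share of all genes at least 2-fold higher or lower was not computed for these alternatives. Whether the counts of members moved with those of all genes was therefore not tested. 

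For classes, log2 ratios of Fasn-R1812W over WT are in the order precursor-like, granule-like, CA1-like and interneuron-like, with no precursor-like value at 30 components. Mitochondrial ratios were 0.70, 0.42, 0.15 and -0.35 at resolution 0.6, then 1.20, 0.15, -0.00904 and -0.13 with 10 principal components, then 0.0940, 0.0031 and -0.0863 with 30 principal components, then 0.89, 0.35, -1.22 and -0.35 with classes by marker score. Nuclear ratios were -0.38, 0.36, 0.10 and 0.28 at resolution 0.6, then -0.10, 0.23, 0.0596 and 0.31 with 10 principal components, then 0.31, 0.0721 and 0.26 with 30 principal components, then 0.0389, 0.30, -0.0131 and 0.37 with classes by marker score. The CA1-like mitochondrial ratio, the precursor-like and CA1-like nuclear ratios and the granule-like mitochondrial median therefore had no settled direction. The median share of nuclei with a read was 28.4, 23.4, 20.9 and 27.4% for mitochondrial and 15.5, 16.5, 42.5 and 43.6% for nuclear members after thinning to 20000 reads, and 58.3, 27.5, 33.2 and 44.3% and 35.6, 18.3, 55.6 and 59.4% without thinning. The correlation of the 2 shares over nuclei moved past its interval in 1 case, to a median of 0.34 within clusters of EdU+ WT. No paired analysis was possible because each group has 1 library and replicate numbers pair nothing. Genotype is the block of the gate fit, and without that term 0 members and 7.36% of all genes were called. No member symbol ends in -ps and a digit in these files, so that alternative changed nothing. EdU+ WT has the fewest kept reads, 15088319.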
